A study of Mus musculus with 6 samples.

Results

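The 38 genes described here mark the wall of blood vessels: 26 are known for endothelial cells and 12 for mural cells, the smooth muscle cells and pericytes that surround them. They were taken by symbol from a table of 17145 genes, in which 36 of the 38 had a row. The endothelial nitric oxide synthase gene *Nos3* and the vitronectin gene *Vtn* had no row in the table used here, and 32 members reached the 10 UMIs in total that were required for a test (23 endothelial and 9 mural). A UMI is a random tag on the primer that lets the copies of a single cDNA molecule be counted once. The libraries came from fresh-frozen heart sections of FS6KD mice, which carry a gene-trap allele of *Ndufs6* on a mixed genetic background and have less of this complex I subunit. Areas were picked by anti-Atf3 immunostaining within Atf3-positive clusters and photo-isolated with ultraviolet light, giving 3 Atf3 high and 3 Atf3 low libraries. Both groups therefore carry the knockdown, no wild-type heart is among them, and the labels give the mice as female and state no age. Whether Atf3 high and Atf3 low areas came from the same animals is not stated, so the p-values measure the spread between these libraries.

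Endothelial cells line every vessel, and in the heart most of them belong to the capillaries that run beside the cardiomyocytes. They are kept and patterned by vascular endothelial growth factor acting on Kdr and Flt1 and by angiopoietins acting on Tek, whereas platelet-derived growth factor released by endothelium holds pericytes through Pdgfrb. Capillary endothelium of heart muscle also carries fatty acids from blood to the myocyte, and mural cells set vessel tone through contractile proteins and potassium channels.

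The labels give the cell type as cardiomyocytes. Cardiomyocyte markers were abundant in the 6 libraries, and RNA of vessel wall cells was found in all of them as well. Atf3 high libraries held 184872, 81117 and 210588 UMIs (replicates 1, 2 and 3) and Atf3 low libraries 171536, 125522 and 81917. A count of 0 allows a level of up to 3 UMIs by counting error alone, which is a CPM (the count scaled to library depth) from 14.2 in Atf3 high replicate 3 to 37.0 in Atf3 high replicate 2 before TMM scaling. The transcript of *Atf3* itself, whose protein chose the areas, differed by a log2 fold change of 0.40 with a standard error of 0.65. Atf3 high replicate 2 goes against its label, with 16 UMIs of Y-linked genes and 0 of *Xist*, where each of the other libraries had at most 1 of the former and at least 3 of the latter. If these counts give the sex of the animal, Atf3 high replicate 2 shares no animal with an Atf3 low library. Results are given without this library below.

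Endothelial genes together took 0.281% of the UMIs of Atf3 high replicate 1 (95% Wilson interval 0.258 to 0.306), 0.233% of replicate 2 (0.202 to 0.269) and 0.251% of replicate 3 (0.231 to 0.274). In Atf3 low they took 0.242% (0.220 to 0.266), 0.238% (0.213 to 0.267) and 0.139% (0.116 to 0.167). Atf3 low replicate 3 had the lowest share, and its interval did not reach that of any other library. These shares are before TMM scaling. All levels below are in CPM scaled by TMM, so that libraries of unequal depth can be set side by side. The summed endothelial level was 2461 ± 178 in Atf3 high against 2281 ± 649 in Atf3 low (SD over the libraries, n = 3 each). The log2 ratio of these means was 0.11, and the groups overlapped, since the highest of the 6 sums, 2797 CPM, was in Atf3 low replicate 1. Without Atf3 low replicate 3 the ratio was −0.13, and without Atf3 high replicate 2 it was 0.15. Fewer endothelial cells in an area and less RNA per cell cannot be told apart in these libraries.

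Mural genes took 0.0925% (0.0796 to 0.107), 0.0419% (0.0300 to 0.0586) and 0.0869% (0.0752 to 0.100) of the UMIs in Atf3 high replicates 1, 2 and 3. In Atf3 low their shares were 0.0630% (0.0522 to 0.0760), 0.0653% (0.0526 to 0.0811) and 0.0549% (0.0411 to 0.0735). Their summed level was 711 ± 260 CPM in Atf3 high against 675 ± 58.0 CPM in Atf3 low, a log2 ratio of 0.07 with overlapping groups. The lowest of the 6 mural sums, 410 CPM from 34 UMIs, was in Atf3 high replicate 2, the library that goes against its label. Without it the log2 ratio was 0.34, and all remaining mural sums of Atf3 high lay above those of Atf3 low. Mural UMIs per 100 endothelial UMIs were 33.0, 17.99 and 34.6 in Atf3 high against 26.02, 27.4 and 39.5 in Atf3 low, so that Atf3 high replicate 2 was also the lowest by this ratio. Intervals of these shares cover counting error only.

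**Figure D1:**
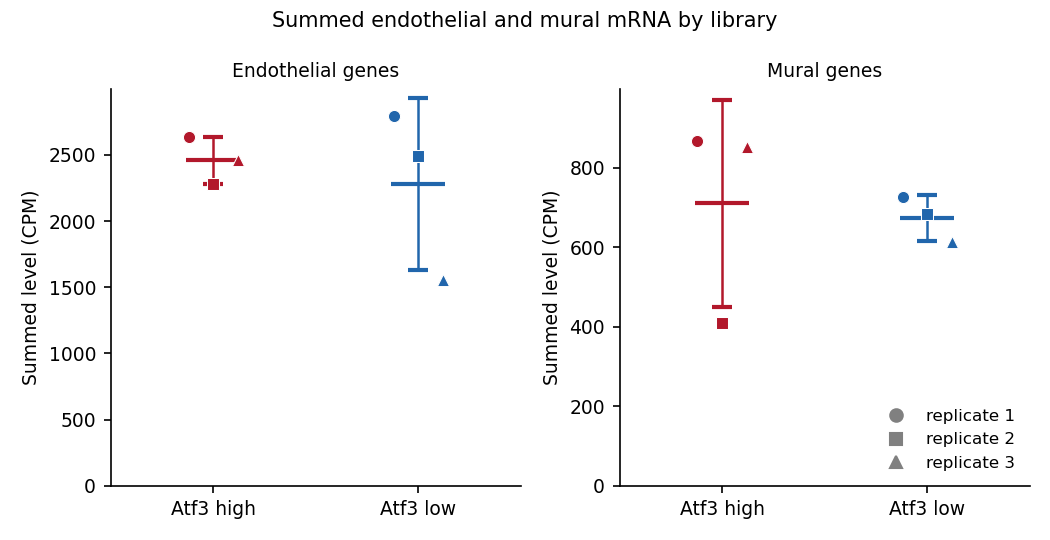
Summed level in CPM of the endothelial genes (left) and of the mural genes (right) in each of the 3 Atf3 high and 3 Atf3 low libraries. Marker shapes give the replicate, the wide bar the mean and the error bar the SD. The groups overlap in both panels, with Atf3 low replicate 3 lowest for endothelial genes (1553 CPM) and Atf3 high replicate 2 lowest for mural genes (410 CPM).

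The quasi-likelihood test of edgeR was run on the 7665 genes that had at least 10 UMIs, and p-values were adjusted over all of them by the Benjamini-Hochberg method. Log2 fold changes are of Atf3 high over Atf3 low. None of the 32 members passed an adjusted p of 0.05 (all genes tested, 0.0913%), and none of the 12 members that DESeq2 gave an adjusted p passed it either, the other 20 having none there. At an unadjusted p under 0.05 there was 1 member, the mural gene *Abcc9* (3.12% of the members, against 5.79% of all genes tested), and by DESeq2 it was again *Abcc9* alone (3.25% of all genes). Log2 fold changes were positive for 19 members and negative for 13, with a median of 0.28, where 55.2% of all genes tested were positive with a median of 0.11. Of the endothelial members 13 of 23 were positive (median 0.23, range −1.73 to 1.32), and of the mural members 6 of 9 (median 0.72, range −1.31 to 1.29). The groups did not overlap for 5 members, *Ly6c1*, *Kdr*, *Myl9* and *Pdgfrb* with Atf3 high above Atf3 low and *Abcc9* with Atf3 high below it (15.6% of the members, against 11.0% of all genes tested). On library size alone, *Sox18* joined the 4 that were higher without overlap, while *Abcc9* overlapped (highest Atf3 high library 123.5, lowest Atf3 low library 122.4 CPM), and 12.6% of all genes did not overlap. That scaling also made 24 of the 32 positive, since it moved the median of all genes from 0.11 to 0.31. Leaving out Atf3 high replicate 2 gave 18 positive of 32, with a median of 0.22, and leaving out Atf3 low replicate 3 gave 17 of 32, with a median of 0.03.

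Standard errors of the members lay between 0.38 and 1.40 on the log2 scale. The 95% interval held 0 for 31 of the 32, and for 27 its upper end reached 1 or more, while for 21 its lower end reached −1 or less. Low values were spread unevenly over the libraries: 12 of the 32 members were lowest in Atf3 low replicate 3 and 6 had no UMI there, whereas in each of the other libraries between 2 and 6 members were lowest and at most 3 had no UMI.

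**Figure D2:**
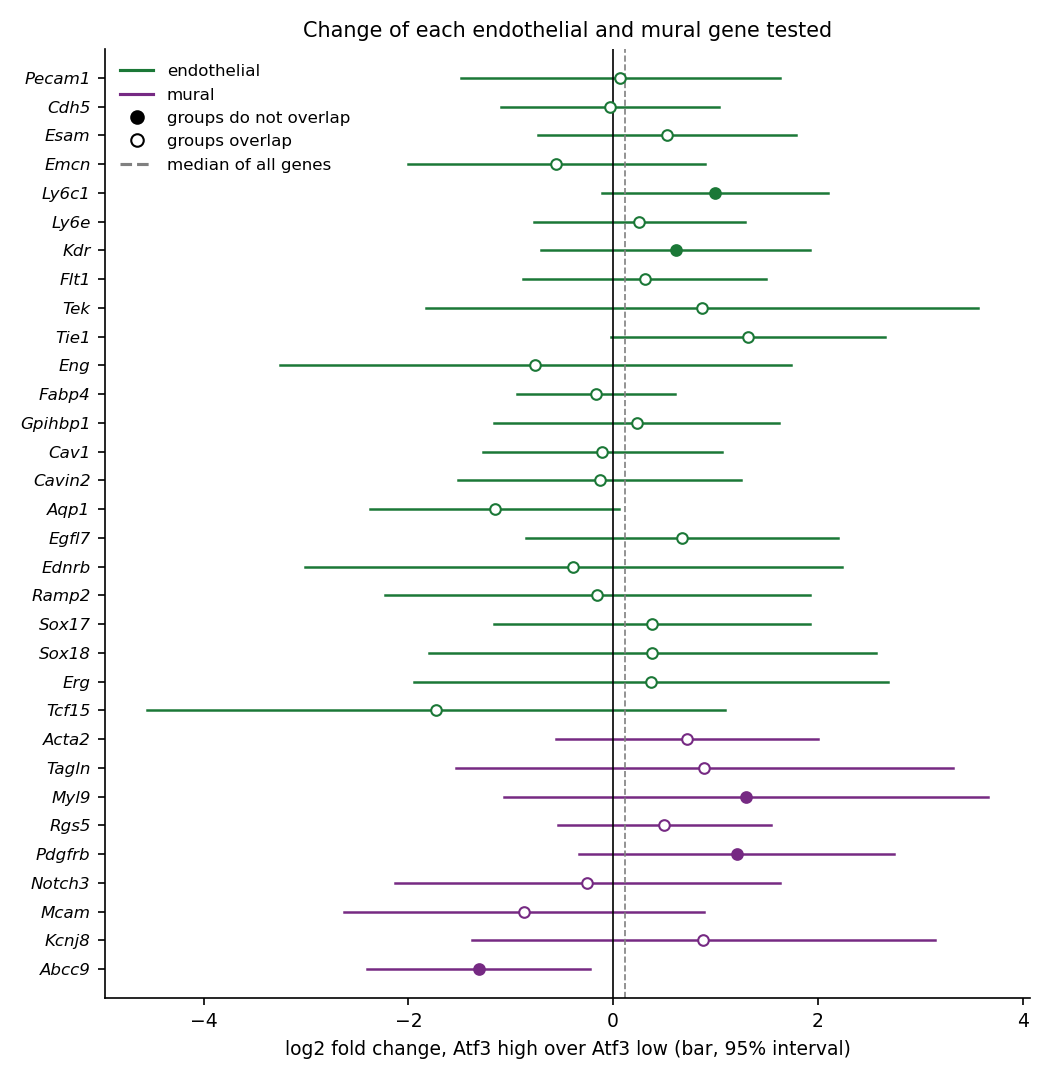
Log2 fold change of Atf3 high over Atf3 low for each of the 32 members tested, with its 95% interval, endothelial genes in green and mural genes in purple. Filled points mark the 5 members whose groups do not overlap, and the dashed line marks the median of all genes tested (0.11). The interval of *Abcc9* (−2.40 to −0.23) leaves out 0, and the other 31 hold it.

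Atf3 binds the sequence TGACGTCA, so the promoters of the members were searched for it, on both strands (the letters read the same on each). RefSeq start sites of GRCm38.p6 gave windows of 250 bases before to 50 after the start for 24 of the 38 symbols, 30 windows in all. The letters were found in *Flt1*, a receptor of vascular endothelial growth factor, and in *Mcam*, a surface adhesion molecule of pericytes, and in 1.79% of all 32851 windows. The partner motif TGANTCA of AP-1, also on both strands, was in none of the member windows and in 7.81% of all. The CArG box, at which serum response factor acts on smooth muscle genes, was searched by its name's consensus on both strands and was found in *Myl9* alone among the members and in 1.63% of all windows. The ETS core GGAA, shared by Erg and related endothelial factors, was in 96% of all windows and sets no gene apart. The 60 bases around each match upstream of the start are shown with the motif in capitals, from chr5:147726058-147726117 (minus strand) for *Flt1*, chr9:44134598-44134657 (plus strand) for *Mcam* and chr2:156775278-156775337 (plus strand) for *Myl9*.
Flt1: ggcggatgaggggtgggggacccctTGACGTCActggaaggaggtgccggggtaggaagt
Mcam: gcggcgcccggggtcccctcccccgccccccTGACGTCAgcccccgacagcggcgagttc
Myl9: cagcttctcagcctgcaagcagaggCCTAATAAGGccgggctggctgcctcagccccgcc
The motif lies at −81 to −74 of the *Flt1* start, −29 to −22 of *Mcam* and −161 to −152 of *Myl9*. A match of letters is not a measured binding site, and the levels of these 3 genes are given with their classes.

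Junction and surface genes hold endothelial cells together and mark their lumen. The adherens junction cadherin *Cdh5* had 34, 18 and 21 UMIs in replicates 1, 2 and 3 of Atf3 high against 32, 24 and 4 in Atf3 low. Its mean level was 163 ± 60.4 CPM in Atf3 high against 157 ± 88.9 CPM in Atf3 low, with Atf3 low replicate 3 below the other 5 libraries (log2 fold change −0.03, standard error 0.53). *Ly6c1*, a lipid-anchored antigen of capillary endothelium, had 37, 23 and 47 UMIs in Atf3 high against 22, 19 and 1 in Atf3 low. All 3 Atf3 high libraries lay above all 3 Atf3 low libraries, at 228 ± 45.5 against 107 ± 80.9 CPM (log2 fold change 1.00, standard error 0.55, edgeR unadjusted p = 0.0768, adjusted p = 0.940). Without Atf3 low replicate 3, which had the single UMI, the log2 fold change was 0.54, and without Atf3 high replicate 2 it was 0.84. *Ly6c1* transcripts share 97.6% identity over 822 bases with *Ly6c2* and 96.6% over 263 bases with *Ly6a*, and how reads that fit several genes were assigned is not given in the sources used here. *Ly6e*, another member of that family and also expressed outside vessels, had 53, 19 and 30 UMIs in Atf3 high against 36, 26 and 4 in Atf3 low, so that Atf3 low replicate 3 again stood below the rest (0.25, standard error 0.51).

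The groups overlapped for the other genes tested here. *Pecam1*, the platelet and endothelial adhesion molecule, had a mean of 50.5 ± 26.05 CPM in Atf3 high against 50.6 ± 3.68 CPM in Atf3 low (log2 fold change 0.07, standard error 0.77). *Esam*, an adhesion molecule of tight junctions, was at 0.53 (standard error 0.63), and the sialomucin *Emcn* of capillaries and veins was at −0.55 (standard error 0.72), and −1.17 without Atf3 high replicate 1. Tight junction claudin *Cldn5* had 3 UMIs in total, all of them in Atf3 low replicate 1, and was not tested. Summed over the 7 genes of the group, levels were 935, 881 and 624 CPM in Atf3 high, and 849, 792.5 and 286 CPM in the Atf3 low libraries, and the groups overlapped.

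Growth factor receptors of endothelium come next. *Kdr*, the main signalling receptor of vascular endothelial growth factor (chr5:75932827-75978458, GRCm38), had 16, 11 and 18 UMIs in Atf3 high against 11, 7 and 4 in Atf3 low. Levels were 81.3, 133 and 83.8 CPM in Atf3 high, above the 74.1, 58.4 and 54.5 CPM of Atf3 low, though the nearest libraries of the groups differed by little more than what a UMI is worth. Its log2 fold change was 0.61 (standard error 0.65, edgeR unadjusted p = 0.353, adjusted p = 0.996), and 0.37 without Atf3 high replicate 2. *Flt1*, which binds the same ligand and whose promoter holds the TGACGTCA letters, had 133 ± 66.0 CPM in Atf3 high against 99.6 ± 55.1 CPM in Atf3 low with overlapping groups (0.31, standard error 0.59). *Tie1*, an orphan partner of the angiopoietin receptor, had 24, 3 and 54 UMIs in Atf3 high against 16, 3 and 2 in Atf3 low. Of its 81 UMIs in Atf3 high, 54 came from replicate 3, and the groups overlapped (log2 fold change 1.32, standard error 0.66, edgeR unadjusted p = 0.0540, adjusted p = 0.884). Without that library the log2 fold change was 0.56, and without Atf3 low replicate 1 it was 2.39. The angiopoietin receptor *Tek* had 11 UMIs in the Atf3 high libraries and 4 in the others (0.87, standard error 1.34). All 4 were in Atf3 low replicate 1, and without it, with no UMI left in that group, the fitted value of 4.52 is no bound. *Eng*, a coreceptor of the TGF-beta family, had 6 UMIs in Atf3 high libraries and 7 in the others (−0.76, standard error 1.24). Summed over the 5 receptors, levels were 330.3, 386 and 479.8 CPM in Atf3 high, and 330.2, 259 and 149.8 CPM in the Atf3 low libraries, a log2 ratio of 0.70 with the closest libraries of the groups level with each other.

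Genes of lipid and water transport carried the most endothelial UMIs. *Fabp4*, the fatty acid binding protein of heart capillaries, had 167, 40 and 140 UMIs in Atf3 high against 136, 88 and 43 in Atf3 low, the largest count of any member. Its level was 661 ± 183 CPM against 745 ± 166 CPM with overlapping groups, and its standard error was the smallest of the members (log2 fold change −0.17, standard error 0.38, 95% interval −0.94 to 0.60). *Aqp1*, the water channel of capillary endothelium, had 8, 1 and 35 UMIs in Atf3 high against 24, 27 and 10 in Atf3 low. Atf3 high replicates 1 and 2 were at 40.6 and 12.1 CPM, below all Atf3 low libraries (136 to 225 CPM), while Atf3 high replicate 3 was at 163 CPM among them. The log2 fold change was −1.16 (standard error 0.60, edgeR unadjusted p = 0.0618, adjusted p = 0.912), −2.53 without Atf3 high replicate 3, −0.79 without Atf3 high replicate 2 and −0.85 without Atf3 high replicate 1. *Cav1*, the scaffold of caveolae, had 32, 8 and 19 UMIs in Atf3 high against 31, 5 and 9 in Atf3 low, with the groups spread over each other (−0.10, standard error 0.58, and 0.53 without Atf3 low replicate 1). *Cavin2*, another coat protein of caveolae, was at −0.13 (standard error 0.69). *Gpihbp1*, which carries lipoprotein lipase to the capillary lumen, was at 0.23 (standard error 0.69). Summed over these 5 genes, levels were 994 ± 230 CPM in Atf3 high against 1183 ± 211 CPM in Atf3 low, and the groups overlapped.

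Among secreted and vasoactive genes, *Egfl7*, an endothelial matrix factor, was at 0.67 (standard error 0.76), and at 0.12 without Atf3 low replicate 1 and 1.58 without Atf3 low replicate 2. Its exons overlap other annotated genes on either strand. The endothelin receptor *Ednrb* had 7 UMIs in each group (−0.39, standard error 1.30), and *Ramp2*, the partner of the adrenomedullin receptor, was at −0.15 (standard error 1.03) and shares 1103 exonic bases with *Vps25*. *Vwf*, the clotting factor carrier of larger vessels, had 9 UMIs, 7 of them in Atf3 high replicate 3. Summed over the secreted and vasoactive genes, levels were 111.8, 132.8 and 139.7 CPM in Atf3 high against 107.8, 108.5 and 81.7 CPM in Atf3 low. The groups did not overlap, but the nearest libraries differed by less than what a UMI is worth. Transcription factors of endothelium were few in UMIs: *Sox17* was at 0.38 (standard error 0.76), *Sox18* at 0.38 (standard error 1.08), *Erg* at 0.37 (standard error 1.15) and *Tcf15*, a factor of heart capillaries that acts on fatty acid transport genes, at −1.73 (standard error 1.40) from 3 and 8 UMIs. *Sox17* was at 1.03 and *Erg* at 1.49 without Atf3 low replicate 2, and *Erg* was at −0.61 without Atf3 high replicate 3. The summed levels of these transcription factors overlapped between the groups.

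Contractile genes of smooth muscle had positive log2 fold changes for each of the 3 tested. *Acta2*, smooth muscle actin, had 37, 6 and 33 UMIs in Atf3 high against 16, 16 and 0 in Atf3 low. The library without a UMI was Atf3 low replicate 3, and Atf3 high replicate 2 lay below the other Atf3 low libraries, so that the groups overlapped (0.72, standard error 0.63). Without Atf3 low replicate 3 its log2 fold change was 0.22. *Myl9*, the regulatory light chain of smooth muscle myosin (chr2:156775420-156781658), had 7, 3 and 6 UMIs in Atf3 high against 0, 2 and 2 in Atf3 low. All Atf3 high libraries lay above all Atf3 low libraries, but the nearest were 28.0 and 27.2 CPM (log2 fold change 1.29, standard error 1.17, edgeR unadjusted p = 0.276, adjusted p = 0.996). Without Atf3 low replicate 1 its log2 fold change was 0.56, and 1.97 without Atf3 low replicate 3. *Tagln*, an actin-bundling protein, had 15 UMIs in Atf3 high, 11 of them in replicate 1, and 5 in Atf3 low (0.89, standard error 1.204), and 2.41 without Atf3 low replicate 2. An antisense transcript shares 1241 of its exonic bases. The calponin gene *Cnn1* had 5 UMIs in total.

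Genes of pericyte signalling and surface included the most abundant mural gene. *Rgs5*, a regulator of G protein signalling that marks pericytes, had 60, 7 and 74 UMIs in Atf3 high against 45, 13 and 8 in Atf3 low. At 305, 84.5 and 345 CPM in Atf3 high, and 303, 108 and 109 CPM in the Atf3 low libraries, the spread within each group was wider than the distance between them (0.50, standard error 0.52, and 1.17 without Atf3 low replicate 1). *Pdgfrb*, the receptor that keeps pericytes at the capillary, had 18, 5 and 18 UMIs in Atf3 high against 7, 3 and 2 in Atf3 low. Its levels were 91.5, 60.3 and 83.8 CPM in Atf3 high, all above the 47.2, 25.03 and 27.2 CPM of Atf3 low (log2 fold change 1.21, standard error 0.76, edgeR unadjusted p = 0.121, adjusted p = 0.964). Leaving out any library moved it between 0.98 and 1.54, and *Pdgfrb* is also expressed by fibroblasts. *Mcam* had 5, 2 and 9 UMIs in Atf3 high against 2, 13 and 4 in Atf3 low (−0.87, standard error 0.87). Atf3 low replicate 2 was at 108 CPM against 13.5 to 54.5 CPM in the other libraries, and without it the log2 fold change was −0.03. *Notch3*, the Notch receptor of arterial smooth muscle, had 12, 1 and 4 UMIs in Atf3 high against 7, 6 and 1 in Atf3 low (−0.25, standard error 0.93, and −1.21 without Atf3 high replicate 1), with both groups spread alike. The proteoglycan gene *Cspg4*, also called NG2, had 7 UMIs in total, at most 2 in a library.

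*Abcc9* and *Kcnj8* encode the sulfonylurea receptor and the pore of the vascular ATP-sensitive potassium (KATP) channel and are neighbours on chromosome 6 (142587862 to 142702315 and 142564837 to 142571614, both on the minus strand). *Abcc9* had 12, 7 and 26 UMIs in Atf3 high against 21, 23 and 26 in Atf3 low, or 61.0, 84.5 and 121 CPM against 142, 192 and 354 CPM. The Atf3 high libraries were all below the Atf3 low libraries under TMM scaling, and Atf3 low replicate 3 was the highest of all, although it was the lowest library for 12 of the members tested. The log2 fold change was −1.31 (standard error 0.54, 95% interval −2.40 to −0.23, edgeR unadjusted p = 0.0190, adjusted p = 0.744). Leaving out a library moved it between −1.65 and −0.90, the latter without Atf3 low replicate 3, and without Atf3 high replicate 2 it was −1.30. *Kcnj8* had 9, 1 and 6 UMIs in Atf3 high against 5, 1 and 0 in Atf3 low (0.88, standard error 1.12), with 1 UMI or none in 3 of the 6 libraries, and its value was 2.37 without Atf3 low replicate 1. Summed over the 2 channel genes, levels were 106.7, 96.6 and 149.1 CPM in Atf3 high against 175.2, 200.2 and 354.1 CPM in Atf3 low. These groups did not overlap under TMM scaling but did on library size alone, and *Abcc9* held most of the UMIs. The sums of the contractile genes and of the pericyte signalling and surface genes overlapped. *Abcc9* is also a subunit of the KATP channel of cardiomyocytes, whose markers had negative log2 fold changes under TMM scaling as described next, and the part of cardiomyocytes in its counts was not tested.

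**Figure D3:**
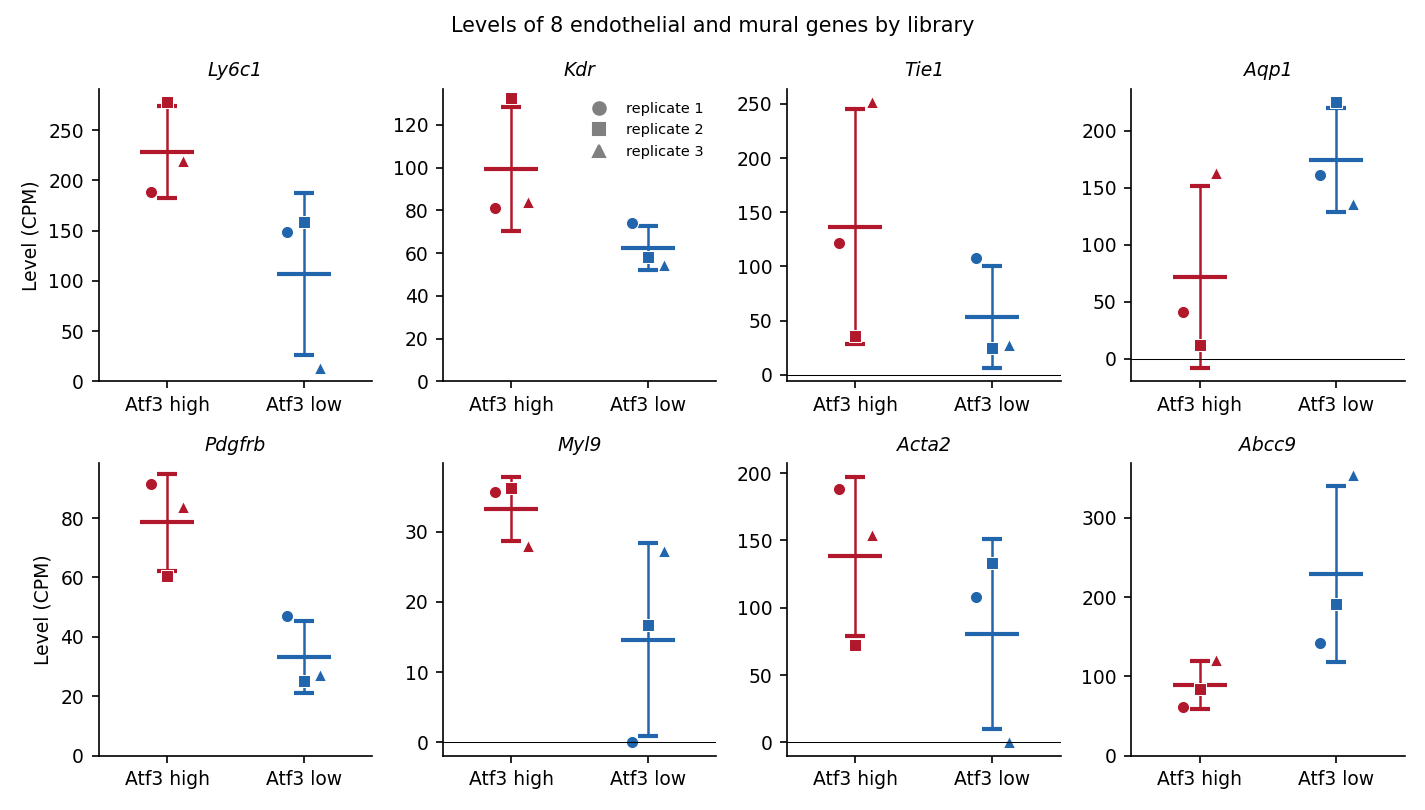
Level in CPM of 8 members in each library, with marker shapes for the replicates, wide bars for the means and error bars for the SD (n = 3 libraries per group). The Atf3 high libraries lie above the Atf3 low libraries for *Ly6c1*, *Kdr*, *Pdgfrb* and *Myl9* and below them for *Abcc9* (on this TMM scale, not by library size alone), and the groups overlap for *Tie1*, *Aqp1* and *Acta2*.

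Markers of other cell types were counted in the same libraries. Of all genes tested, 5.79% had an edgeR unadjusted p under 0.05 and 0.0913% an adjusted p under 0.05. All 13 cardiomyocyte markers tested had a negative log2 fold change (median −0.54), 5 of them at an edgeR unadjusted p under 0.05 and 1 past an adjusted p of 0.05, the myosin heavy chain *Myh6* (−1.81, standard error 0.32, adjusted p = 0.00512). Their sum was 28289 to 53175 CPM in Atf3 high and 53646 to 69935 CPM in Atf3 low, without overlap under TMM scaling, though Atf3 high replicate 3 and Atf3 low replicate 1 lay side by side. As shares of all UMIs the order of these libraries turned, at 5.42% and 4.64%, so that the groups overlapped, and with library size scaling 10 of the 13 markers were negative (median −0.34). Of 12 fibroblast markers 11 were positive (median 1.03), 4 of them at an unadjusted p under 0.05, and their sum was 2455 to 6235 CPM in Atf3 high and 1811 to 2803 CPM in Atf3 low. Without Atf3 high replicate 1 the fibroblast markers were positive in 6 of 11 (median 0.08). Macrophage markers had 3 positive of 8 tested, and their sums overlapped (196 to 401 and 276 to 442 CPM). Endothelial UMIs per 100 UMIs of cardiomyocyte markers were 9.28, 8.06 and 4.63 in Atf3 high against 5.21, 4.27 and 2.22 in Atf3 low, overlapping between Atf3 high replicate 3 and Atf3 low replicate 1. Mural UMIs by the same measure were 3.06, 1.45 and 1.603 against 1.36, 1.17 and 0.876, with each Atf3 high library above each Atf3 low library. The nearest were Atf3 high replicate 2, with 34 mural UMIs, and Atf3 low replicate 1, and the mural sums themselves overlapped. Mitochondrially encoded genes held 16.9% to 21.2% of UMIs in the Atf3 high libraries, against 21.9% to 22.6% in Atf3 low. The part of these differences in the members' levels was not tested. Markers of the endocardium, lymphatic vessels, epicardium and red blood cells had at most 94 UMIs a list, and no adipocyte marker of 6 had a row in the table used here.

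**Figure D4:**
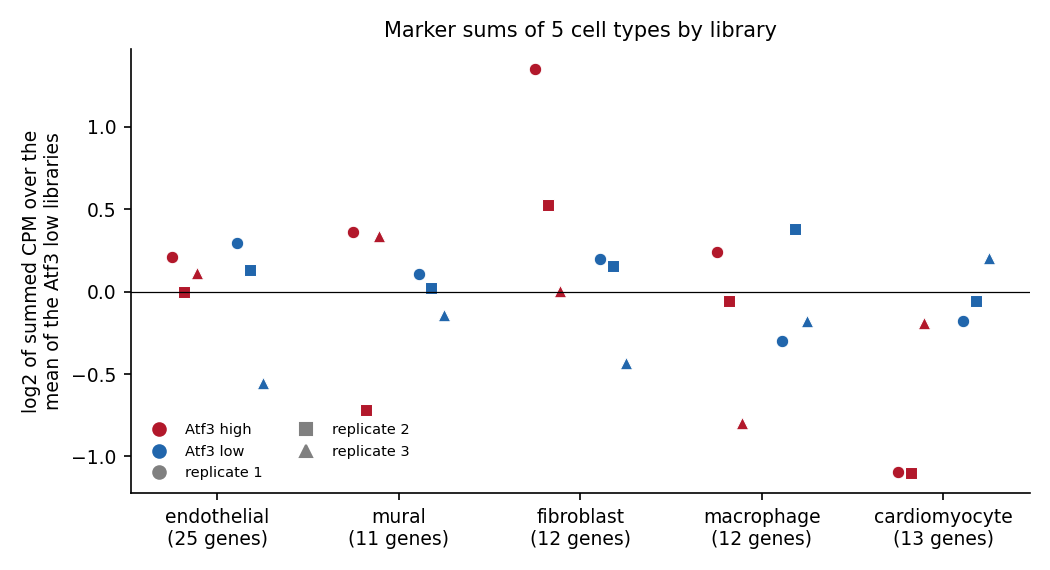
Summed CPM of the marker genes of 5 cell types in each library, as log2 of the ratio to the mean of the Atf3 low libraries, with colours for the groups and marker shapes for the replicates. Endothelial, mural and macrophage sums overlap between groups, as do those of fibroblasts, whereas all cardiomyocyte sums of Atf3 high lie below those of Atf3 low on this scale, but not as shares of all UMIs.

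Ligands and targets of the pathways that act on vessels were looked at as a list of 48 genes, of which 34 were tested. Log2 fold changes were positive for 19 and negative for 15, with a median of 0.05 against 0.11 for all genes tested. An edgeR unadjusted p under 0.05 was found for 1 (all genes tested, 5.79%). That gene was *Ednra*, the endothelin receptor of smooth muscle and cardiomyocytes, with 2, 0 and 6 UMIs in Atf3 high against 2, 17 and 13 in Atf3 low (log2 fold change −2.76, standard error 0.90, edgeR unadjusted p = 0.00364, adjusted p = 0.649). Its groups overlapped through the 2 UMIs of Atf3 low replicate 1. In the VEGF group 3 of 6 were positive, from *Vegfd* at −1.90 (standard error 1.18) to the lymphatic receptor gene *Flt4* at 2.18 (standard error 1.39, 5, 0 and 11 UMIs against 2, 0 and 0). *Vegfa*, the ligand of Kdr, singled out after its values were seen because it held 1389 UMIs, was at −0.43 (standard error 0.37). Of the Notch genes 4 of 5 were positive (median 0.53), of the PDGF genes 1 of 3, and of the BMP and TGF-beta genes 6 of 10 (median 0.15), with none at an unadjusted p under 0.05.

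Further endothelial and mural genes were also split between positive and negative values. Their counts at an edgeR unadjusted p under 0.05 stand beside 5.79% of all genes tested. Of 24 other endothelial genes tested 13 were positive (median 0.07), and the 1 at an unadjusted p under 0.05 was *Lpl*, lipoprotein lipase, which cardiomyocytes also make, at −0.97 (standard error 0.34, adjusted p = 0.649). *Lpl* held 4107 of the 6200 UMIs of that list. Of 16 other mural genes 8 were positive (median −0.17), and 3 had an unadjusted p under 0.05, all negative: the ADP-ribosyltransferase gene *Art3* (−1.95, standard error 0.54, adjusted p = 0.364), *Myocd*, a coactivator of serum response factor in smooth and heart muscle (−3.30, standard error 1.51, 0, 0 and 1 UMIs against 7, 2 and 1), and *Pln*, the regulator of the calcium pump in muscle (−0.88, standard error 0.42). Cardiomyocytes are known to express these genes too, and the level of that contribution was not tested. *Pln* is also 1 of the 13 cardiomyocyte markers above, and is counted there among the 5 at an edgeR unadjusted p under 0.05.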

How the data were processed

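The 38 members and the other gene lists were chosen with earlier results of these data known. The authors deposited raw counts of UMIs for each gene in each library. The authors made CEL-seq2 libraries after photo-isolation, and the submitters' processing notes name UMI-tools (version 1.0.0), HISAT2 (version 2.1.0), featureCounts (version 1.6.4) and GRCm38. Gene annotation, strand setting and the treatment of reads that fit several genes are not given in the sources used here. CEL-seq2 reads come from 3′ ends, so levels were not divided by gene length. Genes without a symbol (1.03% of the UMIs) were kept.

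Libraries were grouped by their labels (3 Atf3 high and 3 Atf3 low). Genes with at least 10 UMIs (7665) were scaled by TMM and compared by the quasi-likelihood test of edgeR (version 4.0.16, R version 4.3.3), without covariates and with Benjamini-Hochberg adjustment over all of them. The test was checked on simulated counts. Sums over a class have no test, because the members were chosen with results known. Within groups no pair of libraries agreed within sampling noise (chi-square of 3.55 to 5.07 per degree of freedom), so no pair was counted as 1 sample. Whether the libraries are independent animals was not tested by this. Intervals of shares are 95% Wilson intervals. Those of log2 fold changes are 95% intervals from the t distribution. Their standard errors were derived from the log2 fold change and the F statistic of the edgeR test. UMIs of every library are given for the 6 members of each class with most UMIs, those at an unadjusted p under 0.05 and those whose groups do not overlap. *Tie1*, *Kcnj8*, *Flt1* and *Pecam1* are given in more detail than the others too, chosen after their values were seen. From other lists, at most the 3 genes of smallest p are named, except *Vegfa*. Positions come from the GENCODE annotation of GRCm38, promoters from RefSeq, and near-identical copies from BLAST+ (version 2.17.0, at least 95% identity over 200 bases). Alternatives were DESeq2 (version 1.42.0), other scalings and filters, a replicate block, thinning and leaving out each library. The overlap of groups on library size alone and the marker counts by setting were added after seeing the data.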

Additional observations from a re-analysis of the deposited data

How the results depend on the processing

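No member that was tested passed an adjusted p of 0.05 in any edgeR setting run, nor any of the 12 that DESeq2 gave an adjusted p. At an unadjusted p under 0.05 the 1 member of the report (*Abcc9*) became 3 with library size scaling (with *Ly6c1* and *Tie1*, 6.71% of all genes). It became 2 with no filter on low counts (with *Tie1*, 3.63% of all genes). When a library was left out there were between 0 and 2 (4.27% to 6.79% of all genes). The count was 0 on leaving out Atf3 high replicate 1 or Atf3 low replicate 3. The check made could not tell whether replicate numbers pair the libraries, since counting noise at these depths lowers such correlations. Deviations of same-numbered libraries correlated at 0.109, 0.0146 and 0.0968, and each library correlated best with its own number. With a replicate block 3 members had an unadjusted p under 0.05 (*Abcc9*, *Ly6c1* and *Aqp1*, 4.81% of all genes), 0 were called, and 24 of all genes were called in place of 7 (12 by DESeq2, 2 after thinning, and 0 to 11 when a library was left out). Within replicate numbers the log2 ratio of the endothelial sum was 0.15 and that of the mural sum −0.002 (replicate block). The block joins Atf3 high replicate 2 (16 UMIs of Y-linked genes and 0 of *Xist*) with Atf3 low replicate 2 (1 and 13). If these counts give the sex of the animal, these libraries are not a pair.

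The log2 ratio of the endothelial sum lay between −0.13 and 0.24 and that of the mural sum between −0.10 and 0.34 when a library was left out, and library size scaling gave 0.32 and 0.29. Without a chosen set of members that other cells also express they were 0.43 and 0.49. The set left out was *Ly6e*, *Fabp4*, *Aqp1*, *Cav1*, *Cavin2*, *Kcnj8*, *Abcc9*, *Acta2*, *Myl9* and *Mcam*. *Pdgfrb*, also expressed by fibroblasts, stayed in the mural sum. With this set left out, the endothelial sum of each Atf3 high library lay above that of each Atf3 low library. The nearest libraries lay close together, and Atf3 low replicate 3 was far below the rest. The mural sums still overlapped. Without the member with most UMIs the ratios were 0.23 and −0.11. Each of these ratios differed from that of the main setting (0.11 and 0.07) by less than the pooled SD of the log2 sums within groups. That compares the settings and is no test of the ratios themselves. Of the 32 members tested 19 kept their sign in each setting that could test them. Signs turned with library size scaling for *Cdh5* (0.18), *Fabp4* (0.045), *Cav1* (0.14), *Cavin2* (0.079) and *Ramp2* (0.07), with no filter for *Cdh5* (0.021), with the replicate block for *Pecam1* (−0.023) and *Cdh5* (0.12), and after thinning for *Pecam1* (−0.34). Leaving out a library turned the sign of *Pecam1* (range −0.33 to 0.32), *Cdh5* (−0.41 to 0.24), *Cav1* (−0.57 to 0.53), *Cavin2* (−0.31 to 0.047), *Ednrb* (−1.01 to 0.24), *Erg* (−0.61 to 1.49), *Flt1* (−0.10 to 0.64), *Gpihbp1* (−0.044 to 0.75), *Ly6e* (−0.15 to 0.53), *Notch3* (−1.21 to 0.035), *Ramp2* (−0.45 to 0.59) and *Sox17* (−0.15 to 1.03). The cause was not tested. At these depths the tested members of 22 UMIs or fewer had standard errors above 1 on the log2 scale, and thinning or filtering by expression left 26 and 17 members to test.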
